A study of Rattus norvegicus with 6 samples.

Results

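The endothelium lines every blood vessel of the renal cortex, and 32 genes whose transcripts mark it were followed here, chosen by name: Pecam1, Kdr, Cdh5, Tek, Tie1, Emcn, Eng, Flt1, Ehd3, Plvap, Vwf, Esam, Ptprb, Egfl7, Robo4, Nos3, Icam2, Sox17, Sox18, Erg, Ets1, Cldn5, Rasip1, Mmrn2, Clec14a, Cd34, S1pr1, Acvrl1, Calcrl and Ramp2, with the ligands Vegfa and Angpt2. The choice was made with earlier results of these data known. A gene was measured by probes carrying a RefSeq transcript of that gene, and the probe with the highest mean signal stood for it. Of the 32 genes, 27 had such a probe and all 27 were bright enough to be tested, among 11748 genes tested of 15284 named on the array. Ptprb, Egfl7, Robo4, Mmrn2 and Vwf had no probe named in this way and were not analysed here. Of the 27, 26 were well above background on all 6 arrays; Calcrl missed this on treated replicate 1.

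Transcripts were measured in total RNA of the renal cortex of male Sprague-Dawley (Crl:CD(SD)) rats that were 5 weeks old at purchase. The control group comprised 3 rats given corn oil for 4 weeks, and the treated group comprised 3 rats that received 750 mg/kg/day of 2-amino-4-nitrophenol, an aromatic amine with a nitro group, over the same 4 weeks. Each rat gave 1 single-colour Cy3-labelled Agilent array, so that the replicates are separate animals. All rats were kept on a basal diet. The tissue is a mixture of tubules, glomeruli, vessels and interstitium, so that the endothelium contributes a part of the RNA.

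Endothelial cells differ along the renal vascular tree. The glomerular endothelium is fenestrated and depends on VEGF-A made by the neighbouring podocytes, the peritubular capillaries are fenestrated and carry diaphragms built from the Plvap protein, and arteries carry a continuous, tightly sealed lining. The angiopoietins act through the receptor tyrosine kinase encoded by Tek, with Tie1 as its partner, and VEGF-A acts through the receptors encoded by Kdr and Flt1. Transcription factors of the ETS and SOX families, such as Erg and Sox17, maintain endothelial gene expression.

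On the corn oil arrays, 68.1% to 70.9% of the 61657 non-control probes were well above background, against 61.6% to 66.3% on the treated arrays, and no probe was saturated. Values below are log2 of the processed signal minus the array's 75th percentile, so that a value of 0 lies at that percentile. A difference is the treated mean minus the corn oil mean, with the standard error of limma, a linear model with variances moderated across genes, and n = 3 arrays per group; adjusted p-values use the Benjamini-Hochberg method over the 11748 genes, with a threshold of 0.05. The tissue markers were present: 10 of 10 proximal tubule markers and 9 of 9 podocyte markers passed the filter on dim probes. Corn oil replicate 2 lay alone on a second slide, and the other 5 arrays shared a slide. On the shared slide the corn oil arrays lay in row 1 and the treated arrays in row 2, so that group and row cannot be told apart within it.

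Endothelial transcripts differed little between treated and corn oil renal cortex. None of the 27 genes passed the adjusted threshold in either direction, where 0.0255% of all genes tested passed (limma). At an unadjusted p under 0.05 in limma, 2 of the 27 were lower, Tek and Tie1, and 0 were higher, against 7.29% of all genes lower and 14.3% higher. Of the 27 differences, 13 were above 0 and 14 below 0, where 57.4% of all genes were above 0 and 42.6% below; after scaling on the spike-in controls all 27 were below 0, with the median of all genes at -0.28. The median difference was -0.022 for the 27 genes and 0.044 for all genes tested, whose interquartile range was -0.13 to 0.21. The median size of a difference, sign ignored, was 0.10 for the endothelial genes and 0.17 for all genes. In whole-tissue RNA, a smaller number of endothelial cells and less transcript per cell cannot be told apart.

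**Figure D1:**
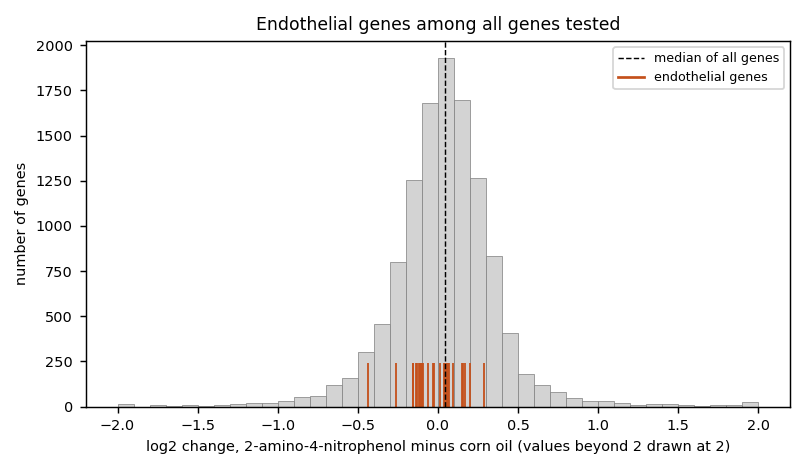
Histogram of the log2 difference (treated minus corn oil) of the 11748 genes tested, with counts of genes on the vertical axis and the 27 endothelial genes as orange-red ticks. The ticks run from -0.44 to 0.28, around the median of all genes at 0.044 (dashed line), and genes beyond a difference of 2 are drawn at 2.

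The precision of the arrays sets how large a difference could have gone unseen. On the brightest probe of all 27 genes the 95% interval of the difference lay within 2-fold either way, as for 88.2% of all genes. For 23 of the 27 it lay within 1.5-fold, as for 62.5% of all genes. Of the 4 exceptions, Tek passed 1.5-fold on the lower side, Cdh5 and S1pr1 on the upper side and Calcrl on both. The widest interval was that of Calcrl, -0.70 to 0.99.

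**Figure D2:**
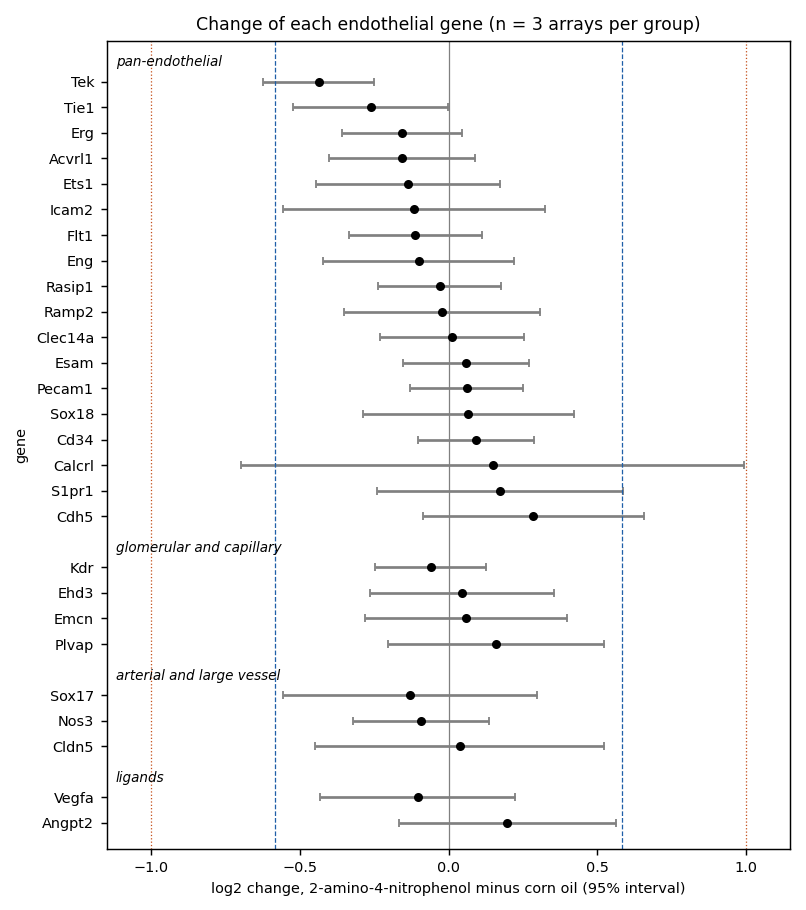
Log2 difference (treated minus corn oil) of each of the 27 endothelial genes with its 95% interval from limma (n = 3 arrays per group), grouped by the part of the vascular tree they mark. Dashed lines stand at 1.5-fold and dotted lines at 2-fold; the interval of Tek lies below 0 throughout, at -0.62 to -0.25.

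Tek, which encodes the angiopoietin receptor, was the endothelial gene with the largest difference. Its log2 values were -2.43, -2.32 and -2.34 on the corn oil arrays and -2.76, -2.85 and -2.79 on the treated arrays. The groups did not overlap: every treated array lay below every corn oil array, and the spread within each group was small (SD 0.060 and 0.047). The difference was -0.44 ± 0.077, a ratio of 0.739 with a 95% interval of 0.649 to 0.841, and it did not pass (limma, adjusted p = 0.101; 0.0647 to 0.350 over the alternatives). Tek was the 1 endothelial gene of 27 whose arrays did not overlap, and it was lower, where 10.1% of all genes were lower without overlap, 20.1% higher and 30.2% either. A second Tek probe gave -0.50 ± 0.29, with arrays that overlapped. The genes of decile 3 by mean signal, which holds Tek, had a median difference of -0.037. With normexp background correction the Tek difference was -0.14, and within the shared slide, without corn oil replicate 2, it was -0.42 (limma, adjusted p = 0.262). It was below 0 in every alternative run.

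Tie1, which encodes the partner receptor of Tek, had log2 values of -0.55, -0.60 and -0.77 on the corn oil arrays and -0.95, -1.01 and -0.75 on the treated arrays. Treated replicates 1 and 2 lay below all corn oil arrays, and treated replicate 3 lay just above the lowest of them. The difference was -0.26 ± 0.11 (95% interval -0.52 to -0.0025; limma, adjusted p = 0.228). The second Tie1 probe gave -0.29 ± 0.10, and on it every treated array lay below every corn oil array. With signals scaled on the spike-in controls, which shifted the median of all genes by -0.32, the differences were -0.76 for Tek and -0.58 for Tie1, or -0.48 and -0.31 relative to that median. The relative values are the same without that scaling by construction, since either scaling subtracts a constant from each array.

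Angpt2, the ligand that endothelial cells release and that can oppose Tek signalling, did not share this direction relative to all genes. Its values were -0.63, -0.81 and -0.86 on the corn oil arrays and -0.87, -0.42 and -0.42 on the treated arrays, and the difference was 0.20 ± 0.15 (limma, adjusted p = 0.468). Treated replicates 2 and 3 lay above all corn oil arrays and treated replicate 1 below them.

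Erg, an ETS transcription factor of endothelial cells, had log2 values of 0.66, 0.81 and 0.80 on the corn oil arrays and 0.56, 0.57 and 0.67 on the treated arrays. Its difference was -0.16 ± 0.083 (limma, adjusted p = 0.317), and treated replicate 3 lay within the corn oil range. The other 2 Erg probes gave -0.22 ± 0.074 and -0.32 ± 0.11, and on both of these every treated array lay below every corn oil array. On the mean over its 3 probes the difference was -0.23, which did not pass either. Ets1, another ETS factor that is also made by lymphocytes, had -0.14 ± 0.13, with treated replicate 2 inside the corn oil range. The SOX factors showed no common direction: Sox17, known from arterial endothelium, had -0.13 ± 0.18 and Sox18, expressed in blood and lymphatic endothelium, 0.067 ± 0.15. Corn oil replicate 1 held the highest Sox17 value, -2.87, where corn oil replicates 2 and 3 read -3.45 and -3.40.

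ETS factors bind DNA around the letters GGAA, and the sequences upstream of the genes were read for the forms AGGAAG and CGGAAG on both strands. The RefSeq promoter table (GRCr8 build) held 20 start sites for 18 of the 32 genes, and Tek was not among them. The 18 include Egfl7, Mmrn2 and Robo4, which had no named probe on the array. Within the 250 bases before the start, 11 of the 20 (55.0%) held AGGAAG and 0 held CGGAAG. Of 10089 starts of genes tested here, 29.5% held AGGAAG and 24.8% held CGGAAG, and among all 33469 starts the shares were 29.5% and 13.9%. Either form was found at 55.0% of the 20 starts, 47.1% of the starts of genes tested and 39.4% of all. The letters TATAAA, on either strand, were found at 3 of the 20, 8.03% of the starts of genes tested and 12.9% of all. These matches are a description of the letters and not evidence of binding.

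The upstream sequences of 2 genes of the lower end (Tie1 and Erg) and 3 capillary genes (Kdr, Plvap and Emcn) are printed to show where such letters lie, 5′ to 3′ on the gene's own strand, ending at the base before the start, with AGGAAG or its reverse complement in capitals. Tie1 lies on the minus strand (chr5:137304982-137305231), Erg on the minus strand (chr11:48251567-48251816), Kdr on the plus strand (chr14:32571813-32572062), Plvap on the minus strand (chr16:18231280-18231529) and Emcn on the plus strand (chr2:228564289-228564538).
Tie1: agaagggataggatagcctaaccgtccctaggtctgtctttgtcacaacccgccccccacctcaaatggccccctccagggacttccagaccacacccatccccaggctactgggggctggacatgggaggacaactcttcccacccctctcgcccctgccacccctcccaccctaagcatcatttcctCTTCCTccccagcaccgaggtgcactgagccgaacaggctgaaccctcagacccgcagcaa
Erg: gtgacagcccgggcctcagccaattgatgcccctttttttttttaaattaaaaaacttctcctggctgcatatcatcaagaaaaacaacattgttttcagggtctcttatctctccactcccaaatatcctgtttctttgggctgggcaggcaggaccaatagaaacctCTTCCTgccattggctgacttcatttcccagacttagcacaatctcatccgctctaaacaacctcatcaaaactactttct
Kdr: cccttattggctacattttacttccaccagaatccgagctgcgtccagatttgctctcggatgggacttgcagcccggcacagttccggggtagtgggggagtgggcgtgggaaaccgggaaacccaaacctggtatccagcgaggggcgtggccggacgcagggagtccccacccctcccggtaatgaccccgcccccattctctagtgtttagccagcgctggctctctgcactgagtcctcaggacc
Plvap: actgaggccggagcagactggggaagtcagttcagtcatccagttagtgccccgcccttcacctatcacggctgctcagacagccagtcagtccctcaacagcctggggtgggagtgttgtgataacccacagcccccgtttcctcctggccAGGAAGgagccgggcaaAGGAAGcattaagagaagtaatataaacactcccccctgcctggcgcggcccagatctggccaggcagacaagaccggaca
Emcn: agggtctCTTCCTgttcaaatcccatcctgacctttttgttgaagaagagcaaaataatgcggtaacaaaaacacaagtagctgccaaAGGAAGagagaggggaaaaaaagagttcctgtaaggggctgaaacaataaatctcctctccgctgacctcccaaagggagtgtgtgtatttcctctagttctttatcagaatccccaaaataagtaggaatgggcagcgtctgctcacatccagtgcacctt

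Tie1 and Erg each held 1 match, whose first printed base lay 61 and 81 bases before the start. Plvap held 2, at 98 and 81 bases, and Emcn 2, at 243 and 162 bases. Kdr held none. Genes with and without a match were found on both sides of 0: Plvap and Emcn, with 2 matches each, had differences above 0, and Kdr, without one, below 0.

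The VEGF receptors and their ligand showed small differences, all 3 below 0. Kdr, the main signalling receptor for VEGF-A and abundant in glomerular and peritubular capillaries, had log2 values of 4.75, 4.62 and 4.68 on the corn oil arrays and 4.66, 4.58 and 4.63 on the treated arrays. Its difference was -0.061 ± 0.077 with a 95% interval of -0.25 to 0.13. After quantile normalization Kdr was at -0.26 ± 0.094, with an unadjusted p of 0.0324 that did not pass after adjustment (limma, adjusted p = 0.245). The genes of decile 10 by mean signal, which holds Kdr and Vegfa, had a median difference of 0.23. Flt1, the receptor that binds VEGF-A tightly and signals weakly, had -0.11 ± 0.092, and its other 2 probes gave -0.013 ± 0.11 and -0.12 ± 0.14. Vegfa itself, which podocytes and tubule cells make, had values of 4.49, 4.504 and 4.43 on the corn oil arrays and 4.58, 4.10 and 4.43 on the treated arrays. Treated replicate 2 was low and treated replicate 1 was the highest array, and the difference was -0.10 ± 0.14 (limma, adjusted p = 0.681). The 5 other Vegfa probes lay between -0.25 and 0.051.

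Junction and surface proteins of endothelial cells formed the largest group, with 9 genes measured, of which 8 had differences above 0 and 1 below, where 57.4% of all genes were above 0, and 0 passed. The split was 4 above and 5 below after quantile normalization and 6 above and 3 below after normexp, and all 9 were below 0 after spike-in scaling. Pecam1, an adhesion molecule at endothelial contacts that platelets and some leukocytes also carry, had values of 2.46, 2.46 and 2.47 on the corn oil arrays and 2.43, 2.58 and 2.56 on the treated arrays. The corn oil arrays agreed within 0.0044 (SD), and the difference was 0.061 ± 0.078 with a 95% interval of -0.13 to 0.25. A second Pecam1 probe disagreed: it read -2.99, -2.79 and -3.00 on the corn oil arrays and -3.26, -3.49 and -3.43 on the treated arrays, a difference of -0.47 ± 0.11 without overlap of the groups (limma over the 20345 named probes kept, adjusted p = 0.138). Which probe follows the transcript was not tested.

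Cdh5, the cadherin of endothelial adherens junctions, had the largest difference above 0. Its values were -2.17, -2.21 and -2.39 on the corn oil arrays and -2.23, -1.68 and -1.9995 on the treated arrays, the difference was 0.28 ± 0.15 (limma, adjusted p = 0.322), and its second probe gave -0.17 ± 0.15, on the other side of 0. Esam, a tight junction adhesion molecule shared with platelets, had 0.059 ± 0.088. Icam2, an adhesion molecule for leukocytes, had -0.12 ± 0.18, with treated replicate 1 at -0.79 and treated replicate 2 at -0.16. Clec14a, a C-type lectin of endothelial cells, had 0.013 ± 0.10, and Cd34, a sialomucin also found on progenitor cells, had 0.092 ± 0.080. Neither was near the threshold.

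Emcn and Plvap mark renal capillaries. Emcn, the sialomucin endomucin, had values of 1.53, 1.68 and 1.64 on the corn oil arrays and 1.42, 1.92 and 1.70 on the treated arrays. Treated replicate 2 was the highest array and treated replicate 1 the lowest, so that the 3 treated rats enclosed all corn oil rats, and the difference was 0.058 ± 0.14. Plvap had values of 5.64, 5.70 and 5.29 on the corn oil arrays and 5.50, 5.81 and 5.81 on the treated arrays. Its difference was 0.16 ± 0.15, with a second probe at 0.030 ± 0.14. The genes of decile 10 by mean signal, which also holds Plvap, had a median difference of 0.23. Ehd3, a membrane trafficking protein that in the kidney marks the glomerular endothelium, had values of -3.38, -3.22 and -2.96 on the corn oil arrays and -3.21, -3.03 and -3.19 on the treated arrays. All treated values of Ehd3 lay within the corn oil range, and the difference was 0.045 ± 0.13 (95% interval -0.26 to 0.35).

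The receptor pair for BMP9 and BMP10 that endothelial cells carry had differences below 0. Acvrl1, the type I receptor ALK1, had values of 1.17, 1.101 and 1.24 on the corn oil arrays and 0.86, 1.02 and 1.153 on the treated arrays and a difference of -0.16 ± 0.10 (limma, adjusted p = 0.399). Treated replicates 1 and 2 lay below all corn oil arrays. Eng, the co-receptor endoglin, had values of 0.60, 0.44 and 0.66 on the corn oil arrays and 0.30, 0.71 and 0.39 on the treated arrays and a difference of -0.10 ± 0.13, with treated replicate 2 above all corn oil arrays.

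Among receptors coupled to G proteins, S1pr1, the sphingosine-1-phosphate receptor that tightens the endothelial barrier, had values of 0.24, 0.47 and 0.55 on the corn oil arrays and 0.26, 0.81 and 0.71 on the treated arrays. Treated replicates 2 and 3 lay above all corn oil arrays, and the difference was 0.17 ± 0.17 (limma, adjusted p = 0.584). Calcrl and Ramp2, which together form an adrenomedullin receptor, had differences of 0.15 ± 0.35 and -0.022 ± 0.14. Calcrl read -5.43 on treated replicate 1 against -4.36 and -4.21 on replicates 2 and 3, and Ramp2 was likewise lowest on treated replicate 1, at 0.090. On the second Ramp2 probe, treated replicate 1 read -1.71 against -0.47 and -0.71.

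Nos3, the endothelial nitric oxide synthase, had values of -1.09, -1.24 and -1.09 on the corn oil arrays and -1.31, -1.29 and -1.11 on the treated arrays and a difference of -0.093 ± 0.094. Rasip1, a regulator of vessel lumen formation, had -0.030 ± 0.085. Cldn5, the tight junction claudin of arterial and other sealed endothelium, had values of 0.79, 0.12 and 0.34 on the corn oil arrays and 0.25, 0.69 and 0.42 on the treated arrays, a difference of 0.037 ± 0.20, and a spread between corn oil rats (SD 0.34) wider than that between treated rats (SD 0.22).

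**Figure D3:**
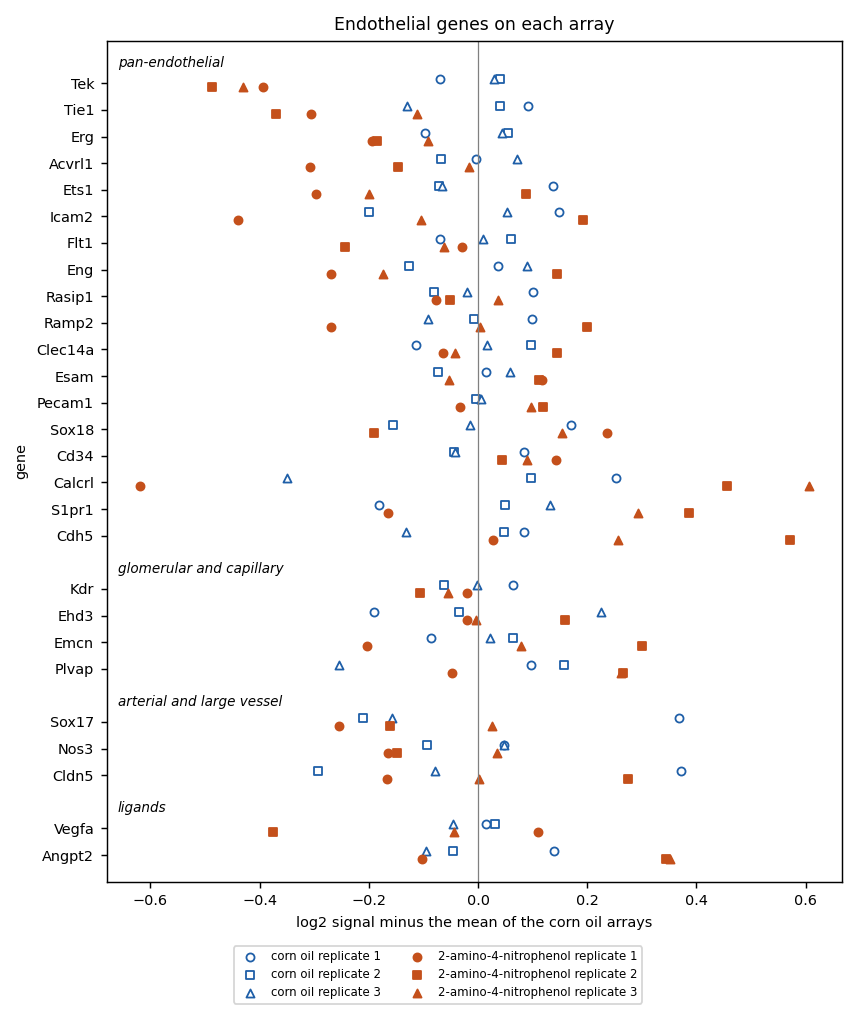
Log2 signal of each of the 27 endothelial genes on each array, given as the distance from the mean of the 3 corn oil arrays. Open blue symbols are corn oil rats and filled orange-red symbols treated rats, with 1 shape per replicate number; the groups are apart for Tek and overlap for the other 26 genes.

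Set side by side, the genes of different parts of the vascular tree overlapped. The 18 pan-endothelial genes had a median difference of -0.026 (8 above 0 and 10 below, 2 at an unadjusted p under 0.05 in limma). The 4 glomerular and capillary genes (Ehd3, Emcn, Kdr and Plvap) had a median of 0.052 (3 above and 1 below), and the 3 arterial and large-vessel genes (Sox17, Cldn5 and Nos3) of -0.093 (1 above and 2 below). In neither of the smaller classes did a gene reach an unadjusted p under 0.05, where 21.6% of all genes did. After quantile normalization the medians were -0.058, -0.048 and -0.057, with 1 of the 4 glomerular and capillary genes above 0, and after normexp the arterial median was 0.0030. No test of the difference between classes was made, since each class holds few genes, chosen by name with earlier results of these data known.

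The medians on single arrays show the same overlap. Each value was taken as its distance from that gene's mean in corn oil rats. The median distance over the 27 genes was 0.065, -0.034 and -0.0026 on corn oil replicates 1, 2 and 3 and -0.16, 0.11 and 0.0019 on treated replicates 1, 2 and 3. For the glomerular and capillary genes it was -0.011, 0.015 and 0.0098 on corn oil replicates 1, 2 and 3 and -0.035, 0.21 and 0.037 on treated replicates 1, 2 and 3, and for the arterial and large-vessel genes 0.37, -0.21 and -0.078 on corn oil replicates 1, 2 and 3 and -0.17, -0.15 and 0.026 on treated replicates 1, 2 and 3. By the median over the 27 genes, treated replicate 1 was lowest and treated replicate 2 highest of the treated rats; for the arterial and large-vessel genes treated replicate 3 was highest. Of the 27 genes, 19 had the lowest of their 3 treated values on treated replicate 1, against 45% of all genes, and 12 had the highest on treated replicate 2, against 46.4% of all genes, a similar share. The spread within the treated group was larger than within the corn oil group for 18 of the 27 genes (66.7%), close to the 67.8% of all genes, and the median SDs were 0.11 and 0.15. Without treated replicate 1, 4 endothelial genes were higher at an unadjusted p under 0.05 (Angpt2 at 0.35, Cdh5 at 0.41, S1pr1 at 0.34 and Calcrl at 0.53) and 1, Tek, was lower, where 2355 of the 11748 genes were higher and 1255 lower in that fit, and none of the 27 passed the adjusted threshold in limma.

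**Figure D4:**
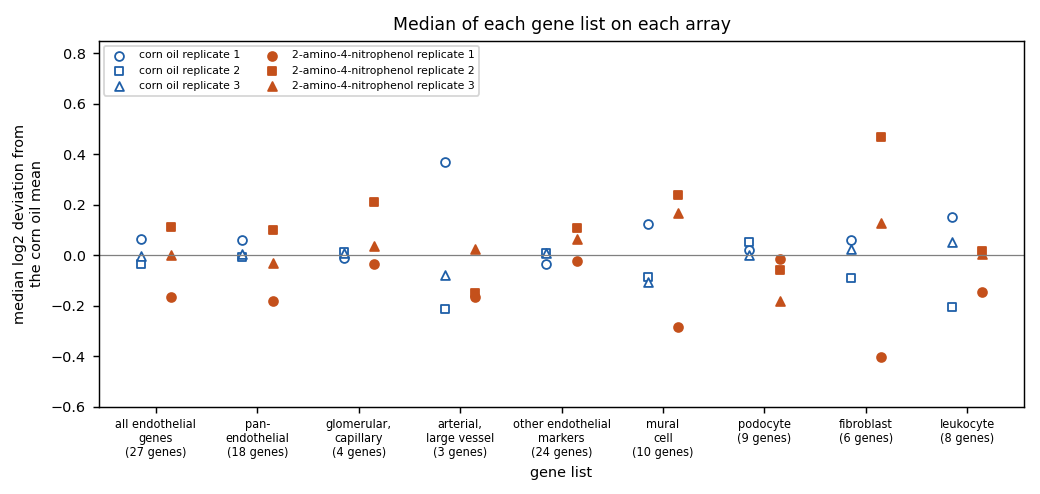
Median over the genes of a list of the log2 distance from the corn oil mean, on each array; open blue symbols are corn oil rats, filled orange-red symbols treated rats, and the number of genes tested stands under each list. For the 27 endothelial genes the treated rats run from -0.16 (replicate 1) to 0.11 (replicate 2) and enclose the corn oil rats.

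By their medians, mural, fibroblast, leukocyte and other endothelial markers were likewise lowest on treated replicate 1 and highest on treated replicate 2. Of all genes, 45% had their lowest treated value on replicate 1 and 46.4% their highest on replicate 2. Podocyte, platelet and proximal tubule markers did not show this order. Podocyte medians were -0.013, -0.056 and -0.18 on treated replicates 1, 2 and 3. Mural cell markers, of pericytes and smooth muscle (10 of 11 tested), had medians of -0.28, 0.24 and 0.17 on treated replicates 1, 2 and 3, and fibroblast markers (6 of 8 tested) of -0.40, 0.47 and 0.13. On the corn oil arrays these medians stayed within -0.11 to 0.12 and -0.089 to 0.062. Summed on the linear scale, in multiples of the array's 75th percentile, the mural markers came to 21.4 to 23.9 on corn oil and 21.6 to 28.9 on treated arrays, and the fibroblast markers to 23.8 to 26.4 and 20.3 to 37.3. The part of these cells in the endothelial values was not tested. The pericyte markers Pdgfrb (0.046 ± 0.15) and Rgs5 (0.0015 ± 0.27) and the collagen genes Col1a1 (-0.0016 ± 0.33) and Col1a2 (0.046 ± 0.20) did not pass. At an unadjusted p under 0.05 in limma, 1 of the 10 mural markers was higher and 0 lower. Of all genes, 14.3% and 7.29% were. That marker was Kcnj8, a potassium channel of pericytes and smooth muscle, named after its values were seen. Kcnj8 had values of 0.90, 0.79 and 0.60 on the corn oil arrays and 1.09, 1.33 and 1.102 on the treated arrays. The difference of Kcnj8 was 0.41 ± 0.12 (limma, adjusted p = 0.149). Its groups did not overlap, and it did not pass after adjustment. It was the 1 mural marker higher without overlap, where 20.1% of all genes were.

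Podocyte markers, all 9 tested, had a median difference of -0.11 with 2 above and 7 below 0; Nphs1, nephrin, had -0.29 ± 0.14. Leukocyte markers (8 of 9 tested) had a median of 0.011, with Ptprc at -0.23 ± 0.17 and Cd68 at 0.035 ± 0.14. At an unadjusted p under 0.05 in limma 1 of the 8 was lower, where 7.29% of all genes were. It was the T cell receptor component Cd3e (-0.97 ± 0.38, with overlap), named after its value was seen. Platelet markers (3 of 6 tested), which share Pecam1 and Esam with the endothelium, had a median of 0.23; Pf4 had 0.23 ± 0.30 and Ppbp was too dim to be tested. Proximal tubule markers had a median of 0.035, with 6 of the 10 above 0 and 4 below. Slc34a1 was at 0.19 ± 0.081 (-0.15 after quantile normalization) and Lrp2 at -0.34 ± 0.097. Without overlap of the groups, 2 of the 10 were higher and 2 lower, where 20.1% and 10.1% of all genes were. At an unadjusted p under 0.05 in limma 3 of the 10 were lower, where 7.29% of all genes were: the endocytic receptor Lrp2 and, named after their values were seen, its partner Cubn (-0.52 ± 0.21, with overlap) and the monocarboxylate transporter Slc5a12 (-0.50 ± 0.18, without overlap). No gene of these lists passed the adjusted threshold in limma.

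Genes with more than 1 probe gave a check within the same RNA. Of the 12 endothelial genes with several probes bright enough to keep, 7 had all probes on the same side of 0 (58.3%), against 67.3% of the 6060 genes with several kept probes. All probes of Tek, Tie1, Erg, Flt1 and Ramp2 were below 0 and all of Angpt2 and Plvap above. Pecam1, Cdh5, Clec14a, Sox18 and Vegfa had probes on both sides. Counted by probe, 46 probes were kept for the 27 genes, and 5 of them had treated arrays entirely below the corn oil arrays, 1 each for Tek, Tie1 and Pecam1 and 2 for Erg. Among all 20345 named probes kept, 12.5% did so, and 17.3% lay entirely above, where 0 of the 46 did. At an unadjusted p under 0.05 in limma 5 of the 46 were lower and 0 higher, against 9.12% and 12.1% of all kept probes. These 5 were the probes whose groups did not overlap. None of the 46 passed the adjusted threshold, where 0.0246% of all kept probes did.

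**Figure D5:**
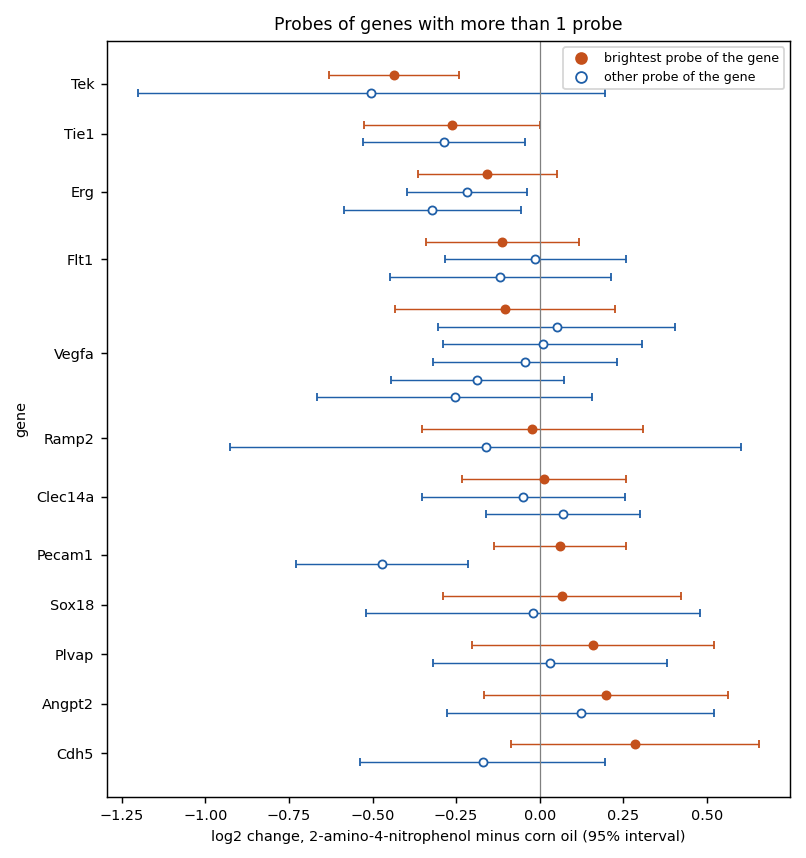
Log2 difference (treated minus corn oil) with its 95% interval from limma for every kept probe of the 12 endothelial genes with several probes; filled orange-red points are the brightest probe of a gene and open blue points the others. Both Tek probes, both Tie1 probes and the 3 Erg probes lie below 0, and the 2 Pecam1 probes lie apart, at 0.061 and -0.47.

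A wider list of 30 other endothelial markers, of which 24 were tested, had a median difference of 0.055, with 16 above 0, 8 below and none past the adjusted threshold. At an unadjusted p under 0.05 in limma, 2 were higher and 2 lower of the 24, where 14.3% of all genes were higher and 7.29% lower. Fli1, an ETS factor related to Erg, had values of -2.51, -2.43 and -2.24 on the corn oil arrays and -2.88, -2.60 and -2.72 on the treated arrays and a difference of -0.34 ± 0.11 without overlap. Igfbp5, an IGF-binding protein also made by other renal cells, had -0.58 ± 0.15, also without overlap. On the higher side were Cyyr1 (0.54 ± 0.18) and Tm4sf1, a membrane protein abundant in endothelial cells (0.28 ± 0.11), both without overlap, and Hhex, a homeobox factor (0.29 ± 0.12). Adjusted p-values of these 5 genes ran from 0.140 to 0.236. Without overlap of the groups, 3 of the 24 were higher and 3 lower, where 20.1% and 10.1% of all genes were.

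Of 51 other genes of vessel signalling, 45 were tested; 25 were above 0 and 20 below, with a median of 0.036, and at an unadjusted p under 0.05 (limma) 6 were higher and 5 lower, with none past the adjusted threshold. Of all genes, 14.3% were higher and 7.29% lower. Without overlap of the groups, 5 of the 45 were higher and 7 lower, where 20.1% and 10.1% of all genes were. Nrp1, the co-receptor of Kdr for VEGF-A, had values of -0.20, -0.061 and -0.033 on the corn oil arrays and -0.56, -0.43 and -0.63 on the treated arrays. Its groups did not overlap, and its difference, -0.44 ± 0.093 (adjusted p = 0.120), was similar in size to that of Tek. Angptl4, a secreted inhibitor of lipoprotein lipase induced by fasting and hypoxia, had the largest difference of this list, -0.997 ± 0.19, with values of 2.99, 3.595 and 3.11 on the corn oil arrays and 2.19, 2.46 and 2.06 on the treated arrays. Jag1, a Notch ligand, had -0.38 ± 0.10, and Slit3, a guidance ligand for Robo receptors, -0.29 ± 0.070, both lower without overlap. Adm, adrenomedullin, the ligand of the Calcrl and Ramp2 receptor, lay above the corn oil arrays without overlap, with values of 3.28, 3.27 and 3.07 on the corn oil arrays and 3.61, 3.62 and 3.48 on the treated arrays and a difference of 0.36 ± 0.095 (adjusted p = 0.140). After spike-in scaling Adm was at 0.043, where the median of all genes was -0.28.

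Genes of endothelial activation, induced on inflamed endothelium, gave no gene at an unadjusted p under 0.05 among 6 tested of 8, with Sele and Selp too dim to be tested. Vcam1, an adhesion molecule also made by renal tubule cells, had values of 2.02, 1.77 and 2.01 on the corn oil arrays and 2.00, 2.71 and 2.15 on the treated arrays, with treated replicate 2 high, and a difference of 0.35 ± 0.20 (limma, adjusted p = 0.340). Icam1, another leukocyte adhesion molecule, had -0.17 ± 0.11, Esm1, endocan, 0.20 ± 0.23, and Cxcl10, a chemokine, 0.21 ± 0.31.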

How the data were processed

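Signal was measured on 6 one-colour Agilent arrays, 1 per rat. Per the file headers, the deposited intensity comes from Agilent Feature Extraction 10.7.1.1 (10.7 in the submitters' processing notes), background-subtracted and detrended by that software, with flags for probes well above background and outliers. The value table is, by comparison with the scanner files, a deposited ratio of intensity to the array's 75th percentile; no column fits the scanner file of its own number, only that of a different rat in its group (SD of the log2 difference 0.00033 to 0.00035), and replicate numbers here follow the scanner files.

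Each intensity was put on the log2 scale and the 75th percentile of the array's non-control probes subtracted. Outlier-flagged probes (64 of 61657) were dropped. A probe stayed if it was well above background in every rat of either group. Probes were named through RefSeq accessions and a RefSeq table (GRCr8): 27460 probes, 15284 genes. A gene stood by its brightest kept probe. The test was limma's lmFit and eBayes (limma 3.58.1, R 4.3.3), unblocked, with Benjamini-Hochberg adjustment over 11748 genes. The procedure was tested on simulated data. Single probes were fitted over 20345 kept named probes.

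The 32 genes, their classes and all lists were chosen with earlier results of these data known. Named genes were all 32, the 5 with the lowest p of each of 3 further vessel lists, and the first 2 of each cell type list; exceptions are said to be named after their values were seen. Some genes of the activation and cell type lists are not reported here and were left out of the lists' counts. Alternatives were normexp (offset 50) on median signals, quantile normalization, spike-in scaling (7 probes), the value table, other filters on dim probes, the mean over probes, a replicate block, a slide block, and leaving out each array; single other probes were added after seeing the data. Array number limits the precision.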

Additional observations from a re-analysis of the deposited data

How the results depend on the processing

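No endothelial gene passed the adjusted threshold under any alternative run. The median of the 27 genes was -0.34 after spike-in scaling, with all 27 below 0, or -0.065 relative to the median of all genes (-0.065 without that scaling). These relative values are equal by construction, since either scaling subtracts a constant from each array. Of 423 values of single endothelial genes under alternatives, 49 had the other sign. The 423 include runs in which these differences could not or could hardly move: the replicate block, the other filters and the value table. The slide block gave the same differences as leaving out corn oil replicate 2. The share of 49 in 423 therefore understates how often signs changed where they could. For Acvrl1, Eng, Erg, Ets1, Flt1, Kdr, Nos3, Tek and Tie1 no value had the other sign. Since spike-in scaling put all 27 genes below 0, only genes already below 0 could be in this list. Over all genes, 3 passed; 56 did after normexp, 8 after spike-in scaling, 0 with no filter, the mean over probes, the replicate block or the slide as a block, and 0 to 70 without single arrays (70 without treated replicate 2, 21 without treated replicate 1, 0 without any one corn oil array). Genes lower at an unadjusted p under 0.05 in limma made up 33.8% of those called, 22.1% with normexp, 53.7% with quantile normalization and 95.3% with spike-in scaling; among the 27 genes the split was 0 higher and 2 lower, against 1 and 1, 0 and 2, and 0 and 7. The cause was not tested.

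The following log2 differences changed sign. With normexp: Esam -0.0088, Clec14a -0.0084, Ramp2 0.024, Sox17 0.090, Col1a2 -0.072. With quantile normalization: Pecam1 -0.043, Clec14a -0.053, Emcn -0.017, Plvap -0.079, Col1a2 -0.10, Slc34a1 -0.15. With spike-in scaling, where the median of all genes was -0.28: Pecam1 -0.26, Cdh5 -0.035, Esam -0.26, Sox18 -0.25, Clec14a -0.31, Cd34 -0.23, S1pr1 -0.15, Calcrl -0.17, Ehd3 -0.27, Emcn -0.26, Plvap -0.16, Cldn5 -0.28, Angpt2 -0.12, Tm4sf1 -0.042, Hhex -0.028, Esm1 -0.12, Cxcl10 -0.11, Pdgfrb -0.27, Rgs5 -0.32, Col1a2 -0.27, Cd68 -0.28, Pf4 -0.093, Slc34a1 -0.12, Smad6 -0.053, Vegfb -0.046, Aplnr -0.097. With the slide as a block, which is the comparison within the shared slide: Sox18 -0.011, Cldn5 -0.11, Cxcl10 -0.076, Pdgfrb -0.021, Rgs5 -0.12. With the mean over probes: Pecam1 -0.21. With another probe: Cdh5 -0.17, Clec14a -0.049, Pecam1 -0.47, Sox18 -0.021, Vegfa 0.051, Vegfa 0.0087. Leaving out single arrays gave these ranges: Rasip1 -0.071 to 0.020, Clec14a -0.053 to 0.061, Ramp2 -0.13 to 0.10, Ehd3 -0.050 to 0.16, Sox17 -0.24 to 0.055, Col1a1 -0.26 to 0.31, Sox18 -0.018 to 0.20, Cldn5 -0.11 to 0.22, Cxcl10 -0.076 to 0.42, Pdgfrb -0.061 to 0.20, Rgs5 -0.18 to 0.28, Calcrl -0.081 to 0.53, Icam2 -0.27 to 0.043, Emcn -0.063 to 0.19, Vegfa -0.21 to 0.033, Col1a2 -0.15 to 0.26, Cd68 -0.058 to 0.19, Pf4 -0.033 to 0.47.

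No label ties the replicate numbers of the groups. Deviations of same-numbered arrays correlated at 0.0065, -0.050 and -0.032 across genes, and those of differently numbered arrays at -0.025 to 0.051. With 3 arrays per group these values cannot exclude a pairing. With the replicate block 0 genes passed and Tek was at -0.44 (adjusted p = 0.255).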

Other observations

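The vessel signalling list held 6 further genes at an unadjusted p under 0.05 in limma, named after their values were seen, of which none passed the adjusted threshold. With the genes named above, 6 of the 45 tested were higher and 5 lower at that p, where 14.3% and 7.29% of all genes were. Without overlap of the groups, 5 were higher and 7 lower, where 20.1% and 10.1% of all genes were. Egln3, an oxygen-sensing prolyl hydroxylase that is induced in hypoxia, had values of -1.03, -1.30 and -1.56 on the corn oil arrays and -0.58, -0.99 and -0.31 on the treated arrays, a difference of 0.67 ± 0.21 without overlap of the groups (adjusted p = 0.167). Vegfb, a ligand of Flt1, had 0.27 ± 0.10, and Aplnr, the apelin receptor of endothelial cells, 0.22 ± 0.084. Smad6, an inhibitor of BMP signalling, had 0.27 ± 0.094 (-0.0030 on its other probe). All 3 were higher without overlap. After spike-in scaling they were below 0, with the median of all genes at -0.28. Relative to that median, Vegfb was at 0.23, Aplnr at 0.18 and Smad6 at 0.22, which by construction are the same without that scaling. Cxcl12, a chemokine of perivascular stroma, had 0.51 ± 0.19 with overlap. Slit2, a ligand of Robo receptors, was lower without overlap, at -0.38 ± 0.12, as was Slit3 above.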
